A study of Mus musculus with 9 samples.

Results

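Fatty acid oxidation was followed through 33 genes chosen by symbol for their roles in the pathway, out of 22017 gene symbols in an FPKM table of mouse T helper cells. All 33 were listed in the table, and 31 passed the filter on low values and were tested. FPKM divides the fragments of a gene by the length of its transcript and by the size of the library, so levels of different genes can be compared per length. Naive T cells came from the spleens of wild-type C57BL/6 mice, and each of 3 groups had 3 RNA sequencing libraries. In the group called Th17-derived Th1, cells passed through the Th17 condition first (TGF-beta at 1 ng/mL, IL-6 at 20 ng/mL and IL-1beta at 10 ng/mL) and were moved to the Th1 condition (IL-12 at 10 ng/mL) when they were activated again on day 7. Th1 cells were kept in the Th1 condition throughout, and Th17 cells in the Th17 condition throughout. The Th1 medium also held an antibody to IL-4, and the Th17 medium held antibodies to IL-4, IL-12 and interferon-gamma. All 3 groups were first activated through CD3 and CD28 for 3 days, received IL-2 at 100 U/mL from day 5, were activated again with both antibodies at 0.05 ug/mL, and gave RNA on day 10. These are bulk cultures made in vitro, so fewer cells of a kind and less RNA per cell cannot be told apart. The labels give neither the age nor the sex of the mice, nor whether the replicates came from separate animals or cultures, so the p-values measure the spread between these libraries, which may be technical.

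Fatty acid oxidation begins when acyl-CoA synthetases join a fatty acid to coenzyme A, and the carnitine shuttle then carries the chain across the mitochondrial membranes. In the matrix each turn of the spiral runs through a dehydrogenase, a hydratase, a second dehydrogenase and a thiolase, which releases acetyl-CoA, while electrons leave through the electron transfer flavoproteins. In T cells the pathway is best known from memory and regulatory cells, and effector cells rely more on glycolysis. Peroxisomes run a related spiral on very long and branched chains.

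Sequence just before the start sites is shown for Acadl and Hsd17b10, the members whose higher level in both groups that ended in the Th1 condition stayed called under every alternative setting run, and for Acadm, a dehydrogenase of the same family as Acadl that was lower in Th1 cells than in Th17 cells. The Hadha-Hadhb entry is the 85 bases that separate the GENCODE starts of these divergently transcribed genes, which encode the subunits of a single enzyme complex. The RefSeq windows place these starts at other positions. All are read 5′ to 3′ from the RefSeq promoter table for GRCm38.p6. The stretches are chr1:66863310-66863559 (minus strand) for Acadl, chrX:152001646-152001844 (plus strand) for Hsd17b10, chr3:153944644-153944893 (minus strand) for Acadm and chr5:30155163-30155247 (plus strand) between Hadha and Hadhb. Capitals mark a match to the core of the NRF1 site.
Acadl: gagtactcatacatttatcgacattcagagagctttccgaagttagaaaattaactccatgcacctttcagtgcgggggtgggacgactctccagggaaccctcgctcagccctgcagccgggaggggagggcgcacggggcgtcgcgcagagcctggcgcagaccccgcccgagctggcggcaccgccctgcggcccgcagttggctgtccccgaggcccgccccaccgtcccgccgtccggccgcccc
Hsd17b10: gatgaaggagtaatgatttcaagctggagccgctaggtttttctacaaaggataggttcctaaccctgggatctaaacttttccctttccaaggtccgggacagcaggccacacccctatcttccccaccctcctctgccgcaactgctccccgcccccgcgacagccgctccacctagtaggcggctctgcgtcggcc
Acadm: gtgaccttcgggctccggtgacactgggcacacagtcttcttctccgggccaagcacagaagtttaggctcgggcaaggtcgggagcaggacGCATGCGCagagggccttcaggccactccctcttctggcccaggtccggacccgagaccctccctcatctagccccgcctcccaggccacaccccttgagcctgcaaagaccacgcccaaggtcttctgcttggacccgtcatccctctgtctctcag
Hadha-Hadhb: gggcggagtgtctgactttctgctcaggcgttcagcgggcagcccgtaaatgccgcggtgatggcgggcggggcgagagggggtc

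Promoter windows, from 250 bases before to 50 after the start, were matched by symbol for 27 of the 33 genes and searched on both strands. None was matched for Acaa2, Hsd17b4, Acat1, Acad9, Crat and Decr1. GCATGCGC, the core of the site of NRF1, a factor known for genes of mitochondria, was found for Acadm, Etfa, Etfdh and Ppara, or 14.8% of the 27 genes, against 4.10% of 16517 genes with a window. TCAAGGTCA, the extended site of estrogen-related receptors, was found for Acsl6, or 3.70%, against 0.387% of all. DR1, the PPAR-type direct repeat of AGGTCA with 1 base between, was found with up to 2 mismatches for Echs1, Etfa and Slc25a20, or 11.1%, against 3.95% of all. With at most 1 mismatch 0 members matched, against 0.563% of all genes. TCAAGGTCA ends in the AGGTCA of DR1, so those searches overlap. The member windows had a median of 60.7% G and C and 17 CpG, against 57% and 14 in all windows. These matches are letters in a window and are not evidence of binding.

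Libraries summed to 382581 to 405985 FPKM and listed 13374 to 14063 genes above 0. Read depth is unknown. Within a group, log values of libraries had a Pearson r of 0.964 to 0.993 over genes, and between groups of 0.889 to 0.971, as a description. Th1 replicate 2 stood apart from its group, with r of 0.964 and 0.967 with Th1 replicates 1 and 3, which had 0.990 with each other. Th17-derived Th1 replicate 3 had 0.971 with Th1 replicates 1 and 3, against 0.975 and 0.978 with its own group. The labels held for the signature cytokines: Ifng was at 717 to 990 FPKM in Th17-derived Th1 and 1005 to 2013 in Th1 cells, against 14.2 to 40.7 in Th17 cells, and Il17f was at most 0.408 in Th17-derived Th1 and 0.0386 in Th1 cells, against 7.58 to 8.77 in Th17 cells. Cd4 was at 86.8 to 96.9, 57.1 to 124 and 52.9 to 97.5 FPKM in Th17-derived Th1, Th1 and Th17 cells. Cd8a and Cd8b1, the markers of CD8 T cells, were both present, and their sum was 25.5 to 152 FPKM in Th17-derived Th1, 19.8 to 170 in Th1 and 50.8 to 203 in Th17 cells. Replicate 3 was the highest of each group in both genes, with Cd8a at 104 to 141 FPKM. Results are therefore also given for replicates 1 and 2 alone. Among these, Cd8a was at 17.4 and 27.4 FPKM in Th17-derived Th1 and 15.3 and 19.0 in Th1 cells. In Th17 cells it was at 37.4 and 54.9, so that subset still differed in Cd8a between groups. Markers of tissues that oxidize or store fat were at or near 0, with Alb, Apoa1 and Adipoq at 0 in all libraries. The sum of 5 macrophage markers was 3.62 to 6.74 FPKM in Th17-derived Th1 and 3.68 to 11.8 in Th1 cells, against 1.42 to 2.92 in Th17 cells, most of it Cd68, with Csf1r at most 0.0109. The sum of 3 NK cell markers was 0.117 to 0.496 FPKM in Th17-derived Th1 and 0.337 to 1.40 in Th1 cells, against 3.11 to 7.19 in Th17 cells, nearly all of it Klrb1c, with Ncr1 at most 0.0571. Of the B cell markers, Cd79b was at 0.485 to 1.27 FPKM in Th17-derived Th1 and 0.665 to 1.296 in Th1 cells, against 1.91 to 3.03 in Th17 cells, with Ms4a1 at most 0.0652 and Pax5 at most 0.0213. The sum of 4 dendritic cell markers was 1.92 to 4.73, 4.16 to 9.03 and 2.10 to 4.06 FPKM in Th17-derived Th1, Th1 and Th17 cells, with Flt3 at 0. Of the neutrophil markers Ly6g was at 9.38 to 34.7 FPKM in Th17-derived Th1 and 2.25 to 3.05 in Th1 cells, against 0.0761 to 0.711 in Th17 cells, while S100a8 and S100a9 were at 0 in all libraries. The part of these markers in the results below was not tested.

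Against Th17 cells, Th17-derived Th1 cells had more Acadl, Hsd17b10 and Acsl4 and less Cpt1a, Acaa2, Eci1, Hadh, Acad9, Echs1 and Hsd17b4. Of 31 tested members 3 were higher, with a background of 6.43% of all 10538 genes tested, and 7 were lower, with a background of 9.49% (15.9% in either direction). The median member differed by −0.21 in log2(FPKM + 1), and the median gene by −0.12. The libraries of the groups did not overlap for 5 members that were higher, with a background of 13.2% of genes, and 15 that were lower, with a background of 30.0%. The number of lower members was 2, 4 and 4 without Th17-derived Th1 replicate 1, 2 and 3, and 2 and 1 without Th17 replicate 1 and 2. In the same order 417, 522, 604, 327 and 302 of all genes were lower, against 1000 with all libraries. With median-ratio scaling 4 members were higher and 4 lower, beside 853 and 501 of all 10538 genes. The gene calls are limma tests across all genes with Benjamini-Hochberg adjusted p below 0.05. A log2 difference is on the log2(FPKM + 1) scale, which understates differences, most for genes near or below 1 FPKM. A fold given with it is a fold of FPKM + 1.

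Against Th1 cells, Th17-derived Th1 cells had more Acsl3 and less Slc25a20, Etfb, Cpt2 and Eci2. Of 31 members 1 was higher, with a background of 5.67% of all genes, and 4 were lower, with a background of 4.81% (10.5% in either direction). The median member differed by −0.08 and the median gene by 0.05. Groups did not overlap for 3 higher members, with a background of 16.3%, and 9 lower members, with a background of 12.9%. By limma, the number of lower members was 1 and 0 without Th17-derived Th1 replicate 1 and 2. In those fits 7 and 6 were lower at an unadjusted p below 0.05, with no share of all genes at that threshold to compare. The number called lower was 2 without Th1 replicate 1, Th1 replicate 3 or Th17 replicate 2. The 1 higher member was joined by Ppard without Th1 replicate 2 and by Acadm without Th17 replicate 3. Over all genes, 1104 were called here, and 1861 without Th1 replicate 2, 642 and 388 without Th1 replicate 1 and 3, and 388 and 315 without Th17-derived Th1 replicate 1 and 2. Without Th17 replicate 2 and 3, 801 and 1158 were called.

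Th1 cells, set against Th17 cells, had more Acadl, Slc25a20, Hsd17b10, Acsl4, Etfb and Cpt2, and less of 12 members, among them Acadm, Eci1, Acsl3 and Cpt1a. The 6 higher members stood against a background of 14.0% of genes and the 12 lower members against 28.9% (42.9% in either direction), with medians of −0.10 for the members and −0.17 for all genes. Groups did not overlap for 6 higher members, with a background of 16.4%, and 14 lower members, with a background of 36.4%. The number of lower members was 7 without Th1 replicate 3 or without Th17 replicate 1. Over all genes 2048 and 1982 were then lower, against 3048 with all libraries. With median-ratio scaling 8 members were higher and 7 lower, beside 2045 and 1759 of all 10538 genes. The 3 comparisons share libraries, so their values for a gene are not independent of each other. In all, 19 of 31 tested members were called in at least 1 comparison, with a background of 46.4% of all genes, and Crat, Acads, Acadvl, Acaa1a, Acsl5, Hadha, Decr1, Etfa, Etfdh, Acox3, Ehhadh and Ppard in none.

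**Figure D1:**
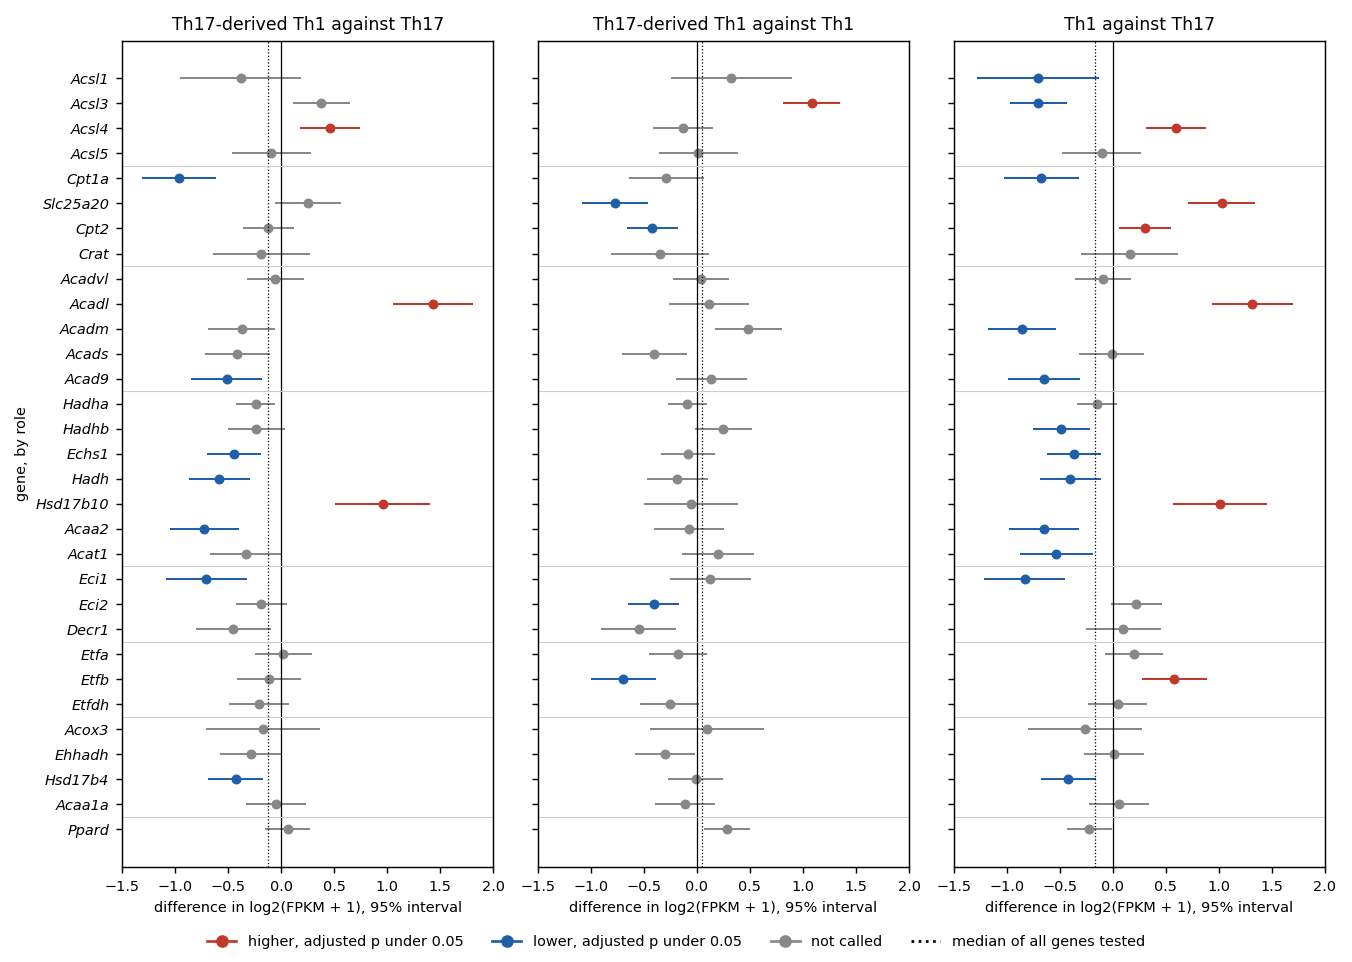
Difference in log2(FPKM + 1) with its 95% interval for the 31 tested members, grouped by role, in each of 3 comparisons; red is higher and blue lower at an adjusted p below 0.05 (limma), grey is not called, and the dotted line is the median of all genes tested. Acadl stands farthest to the right in both comparisons against Th17 cells, at 1.43 and 1.32, and Acsl3 in Th17-derived Th1 against Th1 cells, at 1.08.

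The activating enzymes moved in different directions. Acsl3, a long-chain acyl-CoA synthetase of the endoplasmic reticulum and lipid droplets, was at 5.75, 5.38 and 5.20 FPKM in replicates 1 to 3 of Th17-derived Th1 cells, 2.23, 1.68 and 2.25 FPKM in Th1 cells and 4.20, 3.55 and 4.16 FPKM in Th17 cells. No groups overlapped, and Th17-derived Th1 libraries were the highest. Its difference was 1.08 ± 0.11 (SE) against Th1 cells, or 2.12-fold in FPKM + 1 (adjusted p = 0.00123, limma), with means of 5.44 and 2.06 FPKM. In Th1 against Th17 cells the difference was −0.70 ± 0.11 (adjusted p = 0.00173, limma). Against Th17 cells Th17-derived Th1 was not called, except without Th1 replicate 2 (0.38, adjusted p = 0.0293, limma) and under 5 other settings, median-ratio scaling among them (0.47, adjusted p = 0.0336). Acsl3 (chr1:78657825-78707743, plus strand) contains Utp14b on the same strand, and Utp14b, at 1.57 to 1.89, 0.720 to 0.736 and 1.52 to 1.68 FPKM in Th17-derived Th1, Th1 and Th17 cells, was called the same way in both comparisons (0.67, adjusted p = 0.00622, and −0.60, adjusted p = 0.00260, limma). How shared reads were divided between them is not given in the sources used here.

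Acsl4, which prefers arachidonic acid and shapes the polyunsaturated phospholipids of membranes, had 40.9, 37.1 and 43.0 FPKM in Th17-derived Th1 and 46.6, 40.0 and 46.7 FPKM in Th1 cells, against 30.7, 24.5 and 32.4 FPKM in Th17 cells. Every Th17 library was below the others. The difference from Th17 cells was 0.46 ± 0.12 in Th17-derived Th1 cells (adjusted p = 0.0334, limma) and 0.60 ± 0.12 in Th1 cells (adjusted p = 0.00481). Acsl1, a synthetase abundant in fat and liver, was low, at 3.41, 3.89 and 1.80 FPKM in Th17-derived Th1, 1.86, 3.31 and 1.49 FPKM in Th1 and 3.77, 4.67 and 3.93 FPKM in Th17 cells. It was called lower in Th1 against Th17 cells (−0.71 ± 0.25, adjusted p = 0.0461, limma). Acsl5 was the most abundant synthetase, at 51.0 to 65.2, 52.4 to 72.8 and 56.0 to 74.2 FPKM in Th17-derived Th1, Th1 and Th17 cells, with overlapping groups and no call. The Acsl5 gene shares 26430 bases of its span with Zdhhc6 on the opposite strand. Acsl6 did not pass the filter: it was at 0.0586, 0.123 and 0 FPKM in Th17-derived Th1 and 0.0709, 0.0199 and 0 FPKM in Th1 cells, against 1.75, 1.48 and 0.274 FPKM in Th17 cells. Every Th17 library was above the other 6, and without a filter the adjusted p (limma) was 0.0533 in Th17-derived Th1 and 0.0220 in Th1 cells, each against Th17 cells.

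Of these calls, Acsl4 in Th17-derived Th1 against Th17 cells was lost without Th17-derived Th1 replicate 1, 2 or 3 or Th17 replicate 1 or 2 (adjusted p 0.0556 to 0.120, limma). Acsl1 was lost without Th17-derived Th1 replicate 1, Th1 replicate 1 or 3 or any 1 Th17 replicate (0.0602 to 0.156), and with median-ratio scaling, quantile normalization or no filter on low values. With replicates 1 and 2 alone, the Acsl3 differences were 1.16 and −0.72 and stayed called, that of Acsl4 in Th1 cells was 0.64 and stayed called, and those of Acsl4 in Th17-derived Th1 cells (adjusted p = 0.0948, limma) and of Acsl1 (0.107) were not called. Over the settings other than the omission of 1 library, the lost Acsl1 call had an adjusted p of 0.0844 to 0.121 (limma).

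In the carnitine shuttle, the entry enzyme and the later members stood in different orders. Cpt1a (chr19:3322334-3385733), the rate-limiting enzyme of the outer membrane, was at 9.48, 9.74 and 10.96 FPKM in Th17-derived Th1, 12.04, 12.9 and 12.6 FPKM in Th1 and 21.2, 25.6 and 15.9 FPKM in Th17 cells. The groups did not overlap, with Th17-derived Th1 the lowest and Th17 the highest. Against Th17 cells the difference was −0.96 ± 0.15 in Th17-derived Th1 cells (adjusted p = 0.00361, limma) and −0.67 ± 0.15 in Th1 cells (adjusted p = 0.00752). Th17 replicate 3 was the lowest of the Th17 libraries. With replicates 1 and 2 alone the differences were −1.20 and −0.85, both still called.

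Slc25a20 (chr9:108662088-108684641), the translocase that exchanges acylcarnitine for carnitine across the inner membrane, was at 12.9, 12.9 and 17.2 FPKM in Th17-derived Th1, 26.4, 21.5 and 27.3 FPKM in Th1 and 10.95, 12.1 and 12.2 FPKM in Th17 cells. The Th1 libraries stood above all others. The difference was −0.77 ± 0.13 in Th17-derived Th1 against Th1 cells (adjusted p = 0.00955, limma). It was 1.03 ± 0.13, or 2.04-fold in FPKM + 1, in Th1 against Th17 cells (adjusted p = 0.000623, limma). Cpt2, which reforms acyl-CoA in the matrix, was at 5.24, 5.60 and 6.32 FPKM in Th17-derived Th1, 8.54, 7.62 and 7.85 FPKM in Th1 and 6.90, 5.99 and 6.00 FPKM in Th17 cells. Its Th1 libraries were again the highest, with a difference of −0.42 ± 0.10 in Th17-derived Th1 against Th1 cells (adjusted p = 0.0337, limma) and 0.30 ± 0.10 in Th1 against Th17 cells (adjusted p = 0.0395). Crat, which makes and uses acetylcarnitine, was at 2.54, 2.93 and 4.49 FPKM in Th17-derived Th1, 4.47, 3.27 and 5.72 FPKM in Th1 and 3.56, 4.02 and 3.93 FPKM in Th17 cells, with overlapping groups and no call. Summed over the 4 genes, the shuttle had 30.1, 31.2 and 38.9 FPKM in Th17-derived Th1, 51.5, 45.2 and 53.5 FPKM in Th1 and 42.6, 47.7 and 38.0 FPKM in Th17 cells.

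Without Th17-derived Th1 replicate 2 the Slc25a20 call against Th1 cells was lost (−0.71, adjusted p = 0.0531, limma). The Cpt2 call of Th17-derived Th1 against Th1 cells was lost without Th17-derived Th1 replicate 1 or 2, Th1 replicate 1 or 3 or Th17 replicate 2 (0.0541 to 0.131). The Cpt2 call of Th1 against Th17 cells was lost without Th17-derived Th1 replicate 2, Th1 replicate 1 or 3 or Th17 replicate 2 or 3 (0.0603 to 0.119). With replicates 1 and 2 alone both Slc25a20 differences, −0.84 and 0.99, stayed called, and neither Cpt2 difference was called (adjusted p 0.0840 and 0.142, limma). Both Cpt2 calls were also lost with no filter on low values and in a fit of the 2 groups only, and that of Th1 against Th17 cells with equal sums and the replicate block (adjusted p from 0.0529 and from 0.0584).

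**Figure D2:**
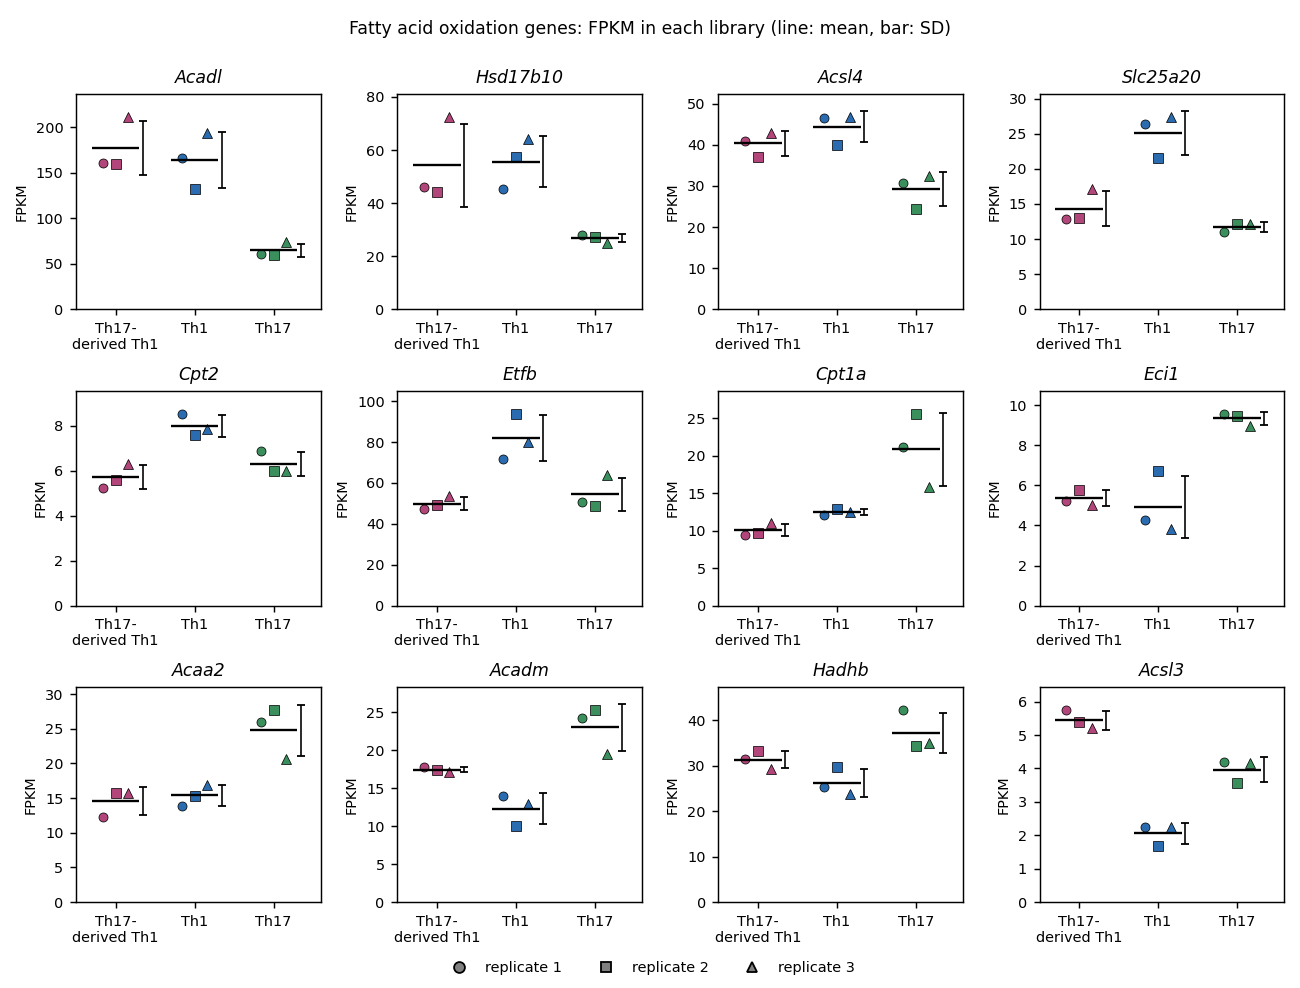
FPKM of 12 members in each of 9 libraries, with a marker shape for each replicate, the group mean as a line and the SD as a bar. Acadl, Hsd17b10 and Acsl4 are higher in both groups that ended in the Th1 condition than in Th17 cells, while Slc25a20, Cpt2 and Etfb have their highest values in Th1 cells.

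Among the acyl-CoA dehydrogenases, which take the first step of each turn, Acadl was the most abundant of all members in both groups that ended in the Th1 condition. In Th17 cells Acadl and Acsl5 had the highest means of the members, at 64.7 and 63.8 FPKM. Acadl (chr1:66830839-66863277, minus strand), the long-chain dehydrogenase, was at 161, 160 and 211 FPKM in Th17-derived Th1 and 166, 132 and 194 FPKM in Th1 cells, against 60.6, 60.1 and 73.4 FPKM in Th17 cells. Every library that ended in the Th1 condition was above every Th17 library, and the Th17-derived Th1 and Th1 libraries overlapped. The difference from Th17 cells was 1.43 ± 0.16 in Th17-derived Th1 cells, or 2.70-fold in FPKM + 1 (adjusted p = 0.000848, limma). In Th1 cells the difference was 1.32 ± 0.16, or 2.49-fold in FPKM + 1 (adjusted p = 0.000479, limma). With replicates 1 and 2 alone it was 1.39 and 1.28, both called.

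Acadm, the medium-chain dehydrogenase whose upstream sequence is shown above, was at 17.8, 17.4 and 17.2 FPKM in Th17-derived Th1, 13.9, 10.0 and 12.9 FPKM in Th1 and 24.3, 25.3 and 19.4 FPKM in Th17 cells. The groups did not overlap, and Th17-derived Th1 cells stood between the other groups. Only the difference of Th1 from Th17 cells was called among the comparisons made (−0.86 ± 0.14, adjusted p = 0.00150, limma), and it was −1.01 with replicates 1 and 2 alone. Th17-derived Th1 was called lower than Th17 without Th1 replicate 2 or Th17 replicate 3 (adjusted p 0.0375 to 0.0470, limma), and higher than Th1 without Th17 replicate 3 (0.49, adjusted p = 0.0391). Acad9, known for the assembly of respiratory complex I as well as for dehydrogenase activity, was at 7.10, 7.59 and 6.26 FPKM in Th17-derived Th1, 5.38, 8.15 and 5.53 FPKM in Th1 and 10.9, 10.1 and 10.1 FPKM in Th17 cells. Every Th17 library was the higher, with a difference from Th17 of −0.51 ± 0.14 in Th17-derived Th1 cells (adjusted p = 0.0425, limma) and −0.65 ± 0.14 in Th1 cells (adjusted p = 0.00722). The first of these was lost without any 1 Th17-derived Th1 replicate (1, 2 or 3), without Th1 replicate 3, without any 1 Th17 replicate (0.0524 to 0.143), by median-ratio scaling (−0.41, adjusted p = 0.0780, limma), and by quantile normalization or no filter on low values (from 0.0707). Neither Acad9 difference was called with replicates 1 and 2 alone (0.171 and 0.0587). Acads, the short-chain enzyme, was at 11.7 to 17.0 FPKM in Th17-derived Th1, 17.97 to 19.4 FPKM in Th1 and 17.4 to 20.6 FPKM in Th17 cells and was not called, although no Th17-derived Th1 library reached the other groups. Without Th17-derived Th1 replicate 3 it was called in both comparisons of that group, at −0.55 against Th17 cells (adjusted p = 0.0200) and −0.53 against Th1 cells (adjusted p = 0.0218, limma). Acadvl, the very-long-chain enzyme of the inner membrane, lay at 27.1 to 32.99, 26.4 to 34.4 and 31.0 to 32.4 FPKM in Th17-derived Th1, Th1 and Th17 cells, without a call.

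In the later steps of the spiral Hsd17b10 and Hadh moved in opposite directions. Of 7 members, 3 were lower and 1 higher in Th17-derived Th1 cells, and 5 lower and 1 higher in Th1 cells, each against Th17 cells. Over all genes 9.49% were lower and 6.43% higher in the first of these comparisons, and 28.9% and 14.0% in the second. Between Th17-derived Th1 and Th1 cells limma called 0 of the 7, with a background of 10.5% of all genes. Of the 7, 0 had an unadjusted p below 0.05, a threshold for which no background is given. Hsd17b10 (chrX:152001845-152004442), a dehydrogenase of short and branched chains that is also a subunit of mitochondrial ribonuclease P, was at 46.1, 44.1 and 72.3 FPKM in Th17-derived Th1 and 45.2, 57.3 and 64.3 FPKM in Th1 cells, against 28.0, 27.3 and 25.0 FPKM in Th17 cells. All Th17 libraries were lower than the rest. The difference from Th17 cells was 0.96 ± 0.19 in Th17-derived Th1 cells (adjusted p = 0.0110, limma) and 1.01 ± 0.19 in Th1 cells (adjusted p = 0.00349), and with replicates 1 and 2 alone 0.69 and 0.86, both called.

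Hadh, which takes the same step on medium and short chains, was lower in both groups than in Th17 cells, at 11.1, 13.0 and 12.3 FPKM in Th17-derived Th1 and 12.9, 16.7 and 12.5 FPKM in Th1 cells, against 19.0, 19.9 and 17.3 FPKM in Th17 cells. The Th17 libraries were all above the others, with differences of −0.59 ± 0.12 (adjusted p = 0.0133) and −0.40 ± 0.12 (adjusted p = 0.0273, limma) in Th17-derived Th1 and Th1 cells. Acaa2, the mitochondrial thiolase, was at 12.3, 15.8 and 15.8 FPKM in Th17-derived Th1 and 13.9, 15.3 and 16.9 FPKM in Th1 cells, against 26.1, 27.7 and 20.7 FPKM in Th17 cells. Again no Th17 library overlapped the others, and the differences were −0.72 ± 0.14 (adjusted p = 0.00958) and −0.65 ± 0.14 (adjusted p = 0.00641, limma). Echs1, the hydratase of short chains, was at 16.4, 14.6 and 15.5 FPKM in Th17-derived Th1 and 15.1, 19.2 and 15.3 FPKM in Th1 cells, against 22.0, 20.1 and 22.5 FPKM in Th17 cells, which were the highest (−0.45 ± 0.11, adjusted p = 0.0257, and −0.36 ± 0.11, adjusted p = 0.0254, limma).

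Hadha and Hadhb encode the alpha and beta subunits of the mitochondrial trifunctional protein, which carries the last 3 steps for long chains. Hadhb was at 31.5, 33.2 and 29.3 FPKM in Th17-derived Th1, 25.3, 29.7 and 23.8 FPKM in Th1 and 42.2, 34.3 and 34.9 FPKM in Th17 cells. Th17 libraries were all the highest, and Hadhb was lower in Th1 than in Th17 cells (−0.48 ± 0.12, adjusted p = 0.00988, limma). Hadha, whose GENCODE start lies 85 bases away on the opposite strand, was not called. Its libraries were at 28.9 to 31.7, 31.2 to 34.1 and 35.1 to 36.5 FPKM in Th17-derived Th1, Th1 and Th17 cells. The ratio of Hadha to Hadhb was 0.966 ± 0.0551, 1.24 ± 0.190 and 0.975 ± 0.125 in the same order (SD, n = 3 each). Th1 libraries were above all others, but only just, with Th1 replicate 2 at 1.051 and Th17 replicate 2 at 1.049. Acat1, which splits acetoacetyl-CoA, was at 21.2, 19.9 and 16.6 FPKM in Th17-derived Th1, 14.8, 20.8 and 14.7 FPKM in Th1 and 25.2, 25.3 and 22.6 FPKM in Th17 cells, which were again the highest. It was called lower in Th1 against Th17 cells (−0.53 ± 0.15, adjusted p = 0.0179, limma).

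Several of these calls were lost when 1 library was left out. In Th17-derived Th1 against Th17 cells, Acaa2 was lost without Th17 replicate 2 (−0.64, adjusted p = 0.0506), Hadh without Th17-derived Th1 replicate 1 or Th17 replicate 1 or 2 (0.0598 to 0.0670), and Echs1 without any 1 library of either group (0.0579 to 0.0983, limma). The differences were then −0.53 to −0.58 for Hadh and −0.41 to −0.49 for Echs1, close to those above. In Th1 against Th17 cells, Hadh and Acat1 were lost without Th1 replicate 1 or 3 or Th17 replicate 1 or 2 (0.0802 to 0.101 and 0.0616 to 0.0690), and Echs1 without Th1 replicate 1 or 3 or Th17 replicate 1 or 3 (0.0691 to 0.0919), with differences of −0.33 to −0.39, −0.45 to −0.51 and −0.31 to −0.35 for Hadh, Acat1 and Echs1. With replicates 1 and 2 alone Acaa2 stayed called in both comparisons (−0.90 and −0.84), while Hadh, Echs1, Acat1 and Hadhb were not called in any. The calls lost in this way had an adjusted p of 0.0523 to 0.195 (limma). Median-ratio scaling also ended the Echs1 calls (adjusted p 0.0630 and 0.153) and the Th1 calls of Hadh (0.128) and Acat1 (0.0551). Quantile normalization and a fit of the 2 groups only ended the Th1 calls of Hadh and Echs1 (from 0.0508 and from 0.0512). Without Th1 replicate 2 Acat1 was also called in Th17-derived Th1 against Th17 cells (−0.33, adjusted p = 0.0490, limma).

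For unsaturated chains, which need extra enzymes to move or remove double bonds, Eci1 and Eci2 differed. Eci1, a mitochondrial enoyl-CoA isomerase, was at 5.23, 5.79 and 5.02 FPKM in Th17-derived Th1 and 4.27, 6.70 and 3.82 FPKM in Th1 cells, against 9.57, 9.45 and 8.98 FPKM in Th17 cells. All Th17 libraries were higher, with a difference of −0.70 ± 0.16 in Th17-derived Th1 cells (adjusted p = 0.0206, limma) and −0.83 ± 0.16 in Th1 cells (adjusted p = 0.00410). Eci2, an isomerase of mitochondria and peroxisomes, was at 24.3, 22.7 and 26.1 FPKM in Th17-derived Th1, 35.6, 28.7 and 33.8 FPKM in Th1 and 26.7, 29.2 and 27.6 FPKM in Th17 cells. No Th17-derived Th1 library reached the others, and Eci2 was lower in Th17-derived Th1 than in Th1 cells (−0.41 ± 0.10, adjusted p = 0.0370, limma). Decr1, the dienoyl-CoA reductase, was low, at 1.68 to 2.27 FPKM in Th17-derived Th1, 2.88 to 4.35 in Th1 and 2.77 to 3.67 in Th17 cells, and was not called, although its Th17-derived Th1 libraries lay below all others. Eci1 lost its call in Th17-derived Th1 against Th17 cells without Th17-derived Th1 replicate 1 or 3 or Th17 replicate 1 or 2 (0.0613 to 0.0818) and with replicates 1 and 2 alone (0.0797), and Eci2 lost its own without Th17-derived Th1 replicate 1 or 2, Th1 replicate 1 or 3 or Th17 replicate 1 or 2 (0.0601 to 0.155) and with replicates 1 and 2 alone (0.136, all limma). Equal sums and a fit of the 2 groups only also ended the Eci2 call (from 0.0558). Median-ratio scaling called Decr1 lower in Th17-derived Th1 than in Th1 cells (−0.59, adjusted p = 0.0354, limma). Without Th1 replicate 2 Decr1 was called in Th17-derived Th1 against Th17 cells (−0.45, adjusted p = 0.0397) and Eci2 in Th1 against Th17 cells (0.31, adjusted p = 0.0224, limma).

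Of 3 genes of electron transfer, Etfb was called, where 46.4% of all genes were called in at least 1 comparison. Etfb (chr7:43444083-43457800), the beta subunit of the flavoprotein that takes electrons from the dehydrogenases, was at 47.1, 49.0 and 53.7 FPKM in Th17-derived Th1, 71.7, 93.8 and 80.0 FPKM in Th1 and 50.8, 48.8 and 63.7 FPKM in Th17 cells. Th1 libraries were above all others. The difference was −0.70 ± 0.13 in Th17-derived Th1 against Th1 cells (adjusted p = 0.0126, limma) and 0.58 ± 0.13 in Th1 against Th17 cells (adjusted p = 0.00758). The call against Th1 cells was lost without Th17-derived Th1 replicate 1 or 2 (0.0603 to 0.0605), and with replicates 1 and 2 alone both were called, at −0.76 and 0.71. Etfb overlaps Gm45233 on the same strand, which was at most 0.401 FPKM. Etfa, the alpha subunit, was at 36.6 to 47.9, 41.7 to 51.1 and 39.8 to 42.0 FPKM in Th17-derived Th1, Th1 and Th17 cells without a call, although median-ratio scaling called it higher in Th1 than in Th17 cells (0.37, adjusted p = 0.0216, limma). Etfdh, which passes the electrons to ubiquinone, lay at 10.2 to 13.2, 13.5 to 16.0 and 12.6 to 14.7 FPKM and was not called.

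In the peroxisomal spiral 1 of 4 members was called in any comparison, with the same background of 46.4%. Hsd17b4, the bifunctional enzyme of its middle steps, was at 14.2, 13.0 and 14.4 FPKM in Th17-derived Th1 and 14.4, 14.0 and 13.4 FPKM in Th1 cells, against 20.0, 21.3 and 16.0 FPKM in Th17 cells. Every Th17 library was above the others, and the difference was −0.43 ± 0.11 in Th17-derived Th1 cells (adjusted p = 0.0319, limma) and −0.42 ± 0.11 in Th1 cells (adjusted p = 0.0156). With replicates 1 and 2 alone both stayed called, at −0.57 and −0.51. The Th17-derived Th1 call was lost without Th17-derived Th1 replicate 1, 2 or 3 or Th17 replicate 1 or 2 (0.0617 to 0.128) and the Th1 call without Th1 replicate 3 or Th17 replicate 1 or 2 (0.0556 to 0.0640), and median-ratio scaling ended both (0.104 and 0.108, all limma), as did quantile normalization (0.0840 and 0.0860). Acox3, the oxidase of branched chains, was at 10.6 to 16.3, 8.10 to 15.7 and 12.7 to 16.2 FPKM in Th17-derived Th1, Th1 and Th17 cells, and Ehhadh, another bifunctional enzyme, at 1.31 to 1.67, 1.86 to 2.48 and 1.95 to 2.20 FPKM. Acaa1a, the peroxisomal thiolase, was at 28.4 to 36.2, 30.0 to 35.8 and 30.4 to 35.2 FPKM. Its close copy Acaa1b was at most 0.539 FPKM, and Acaa1a also overlaps Myd88 on the opposite strand, so reads may have been shared.

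Ppara and Ppard are nuclear receptors known to drive these genes in other tissues. Ppara was listed at 0 in 8 libraries and at 0.0285 FPKM in Th17 replicate 2, and was not tested. Ppard was at 8.61 to 8.76 FPKM in Th17-derived Th1, 6.58 to 7.51 in Th1 and 7.65 to 8.74 in Th17 cells. Its Th1 libraries lay below all others. Ppard was not called with the settings used here, and was called without Th1 replicate 2 (−0.27 in Th1 against Th17 cells, adjusted p = 0.0444, and 0.33 in Th17-derived Th1 against Th1 cells, adjusted p = 0.0476, limma), with equal sums and with array weights.

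**Figure D3:**
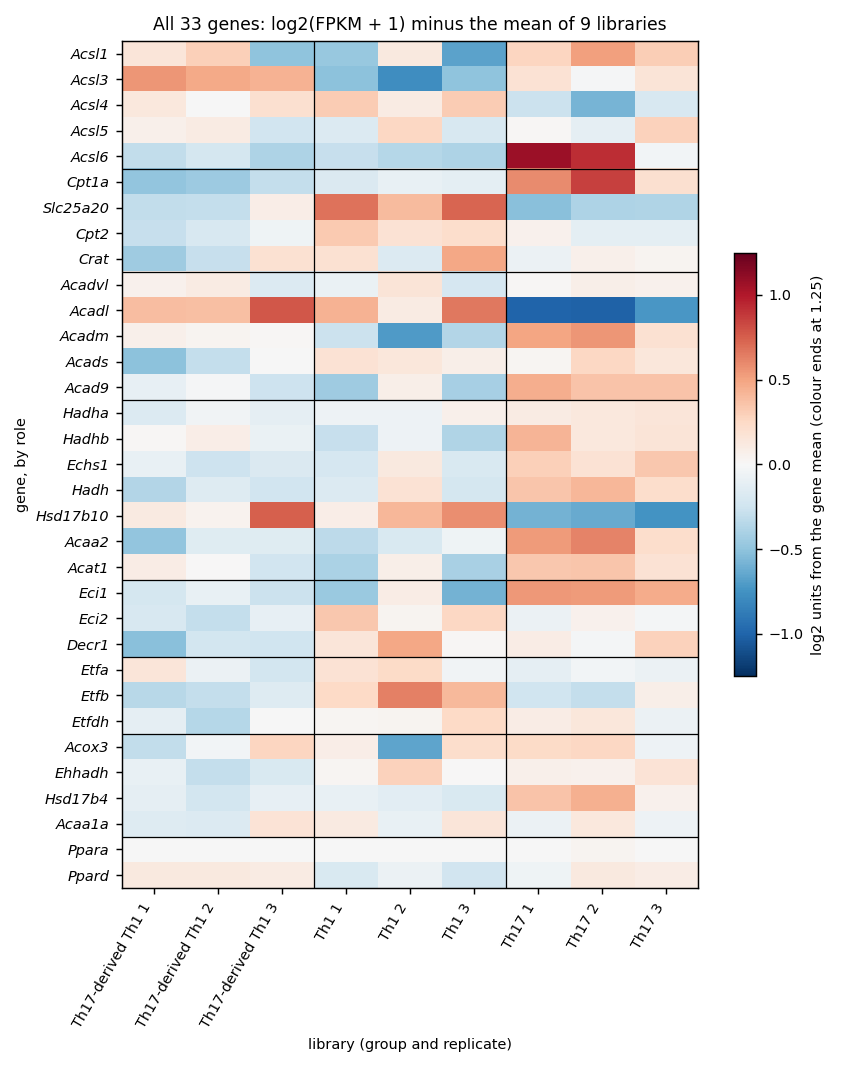
All 33 members (rows, by role) in 9 libraries (columns, by group), coloured by log2(FPKM + 1) minus the mean of the gene over the 9 libraries. Acadl and Hsd17b10 are blue in all 3 Th17 libraries, where Cpt1a, Eci1 and Acaa2 are red, and Acsl6 is red in Th17 replicates 1 and 2.

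The mean of Th17-derived Th1 cells was the lowest of the 3 groups for 15 of the 31 tested members (48.4%), against 24.8% of all genes tested, lay between the others for 13 (41.9%, against 60.2%) and was the highest for 3 (9.68%, against 15.1%). This order is a description with no test. Among the members it was lowest for were Cpt1a, Cpt2, Acads and Etfb, whose values are given above, and it was highest for Acsl3, Acadl and Ppard. Summed over all 33 members, libraries held 742, 742 and 824 FPKM in Th17-derived Th1 and 797, 817 and 846 FPKM in Th1 cells, against 706, 707 and 714 FPKM in Th17 cells. The 5 dehydrogenases made up 229, 231 and 279 FPKM of this in Th17-derived Th1 and 233, 203 and 257 FPKM in Th1 cells, mostly Acadl. In Th17 cells they made up 144, 148 and 154 FPKM, of which Acadl was 42.0%, 40.5% and 47.8%.

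Ratios between members within a library do not depend on how libraries are scaled, and were chosen after the values were seen. Acadl made up 70.2%, 69.0% and 75.8% of the summed FPKM of the 5 dehydrogenases in Th17-derived Th1 and 71.1%, 64.9% and 75.5% in Th1 cells, against 42.0%, 40.5% and 47.8% in Th17 cells. Acadl over Acadm was 9.04, 9.17 and 12.3 in Th17-derived Th1, 11.9, 13.2 and 15.0 in Th1 and 2.496, 2.38 and 3.78 in Th17 cells. No Th17 library came near the others in either measure. Slc25a20 over Cpt1a was 1.36, 1.33 and 1.56 in Th17-derived Th1, 2.20, 1.67 and 2.18 in Th1 and 0.517, 0.474 and 0.769 in Th17 cells, so that the 3 groups stood in a row without overlap. Hsd17b10 over Hadh was 4.14, 3.397 and 5.88 in Th17-derived Th1 and 3.51, 3.43 and 5.16 in Th1 cells, against 1.47, 1.37 and 1.45 in Th17 cells. Acsl3 made up 5.07%, 4.82% and 5.15% of the Acsl sum in Th17-derived Th1, 2.14%, 1.43% and 2.19% in Th1 and 4.13%, 3.94% and 3.62% in Th17 cells. With 3 libraries against 3 a two-sided exact permutation test cannot give a p below 0.1, which was the value for each of these ratios wherever the groups did not overlap.

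**Figure D4:**
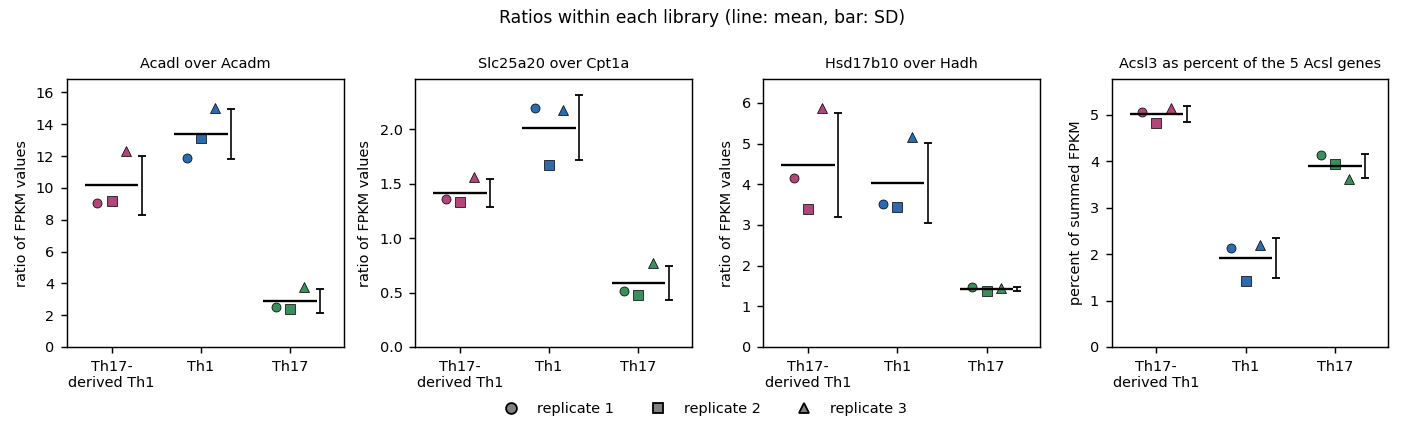
Ratios of members within each of 9 libraries, with the group mean as a line and the SD as a bar. Acadl over Acadm, Slc25a20 over Cpt1a and Hsd17b10 over Hadh are lowest in Th17 cells in all 3 libraries, and the share of Acsl3 is lowest in Th1 cells.

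No member changed direction where it was called, but scaling and single libraries changed how many were called. With median-ratio scaling the median of all genes was −0.01, in place of −0.12, in Th17-derived Th1 against Th17 cells and −0.02, in place of −0.17, in Th1 against Th17 cells. The share of called genes that were higher was 63.0% with it and 40.4% without it in the first comparison and 53.8% and 32.7% in the second. Relative to the median gene, Acadl differed from Th17 cells by 1.55 in Th17-derived Th1 and 1.49 in Th1 cells, Hsd17b10 by 1.08 and 1.18, Cpt1a by −0.84 and −0.51, and Acaa2 by −0.60 and −0.48. Calls that were kept under all 20 alternatives were Acadl, Hsd17b10 and Cpt1a in Th17-derived Th1 against Th17 cells (3 of 10), Acsl3 against Th1 cells (1 of 5), and Cpt1a, Slc25a20, Acadl, Acadm, Acaa2, Acsl3, Acsl4, Eci1, Etfb and Hsd17b10 in Th1 against Th17 cells (10 of 18). In all 3 groups replicate 3, which had the most Cd8a, was above the mean of replicates 1 and 2 for Acadl, Acsl4, Crat and Slc25a20 (12.9% of members, against 13.4% of all genes) and below it for Acad9, Acat1, Acsl1, Eci1, Etfa and Hadhb (19.4%, against 16.7%), shares near those of all genes, while 21 members were mixed.

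Other genes of the pathway were read from lists drawn up with earlier results of these data known, and their counts are set beside the shares of all genes. In the 3 comparisons, Th17-derived Th1 against Th17, Th17-derived Th1 against Th1 and Th1 against Th17, 6.43%, 5.67% and 14.0% of all genes were called higher and 9.49%, 4.81% and 28.9% lower. Of 17 tested genes of peroxisomal oxidation, 0 were higher and 4 lower in Th17-derived Th1 against Th17 cells, 0 higher and 2 lower against Th1 cells, and 3 higher and 4 lower in Th1 against Th17 cells. The called genes were 23.5%, 11.8% and 41.2% of the list, against 15.9%, 10.5% and 42.9% of all genes, and its median differences were −0.17, −0.12 and −0.12, against −0.12, 0.05 and −0.17 over all genes. Crot, which makes the carnitine esters that leave the peroxisome, averaged 21.1 ± 8.64 FPKM in Th17-derived Th1, 50.8 ± 13.6 in Th1 and 25.2 ± 1.13 in Th17 cells (SD, n = 3 each), and was lower in Th17-derived Th1 than in Th1 cells (−1.26, adjusted p = 0.0201, limma) and higher in Th1 than in Th17 cells (0.94, adjusted p = 0.0197). Like Slc25a20 and Cpt2 it had its highest mean in Th1 cells. Ech1, a dienoyl-CoA isomerase, was also called in both of these comparisons (−0.50, adjusted p = 0.0249, and 0.57, adjusted p = 0.00406, limma). Amacr, a racemase of branched chains, was lower against Th17 cells in Th17-derived Th1 (−0.82) and Th1 cells (−1.28), as was Scp2, a thiolase and sterol carrier (−0.48 and −0.80). Abcd3, an importer of the peroxisome, and Cat, which breaks down hydrogen peroxide, were lower in Th17-derived Th1 against Th17 cells (−0.75 and −0.42), and Pex5, a receptor for import into peroxisomes, in Th1 against Th17 cells (−0.65).

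Among 21 tested genes of other mitochondrial oxidation and of thioesterases, 1 was higher and 3 lower in Th17-derived Th1 against Th17 cells, 1 higher and 0 lower against Th1 cells, and 2 higher and 6 lower in Th1 against Th17 cells. These were 19.0%, 4.76% and 38.1% of the list, near or below the 15.9%, 10.5% and 42.9% of all genes, with median differences of −0.19, −0.05 and −0.17, against −0.12, 0.05 and −0.17 over all genes. Acsf2, a synthetase of medium chains, averaged 5.76 ± 2.35 FPKM in Th17-derived Th1 and 4.45 ± 0.499 in Th1 cells, against 13.2 ± 0.492 in Th17 cells (SD, n = 3 each), and was lower in both (−1.12 and −1.38, adjusted p = 0.00726 and 0.00111, limma). Acad10 was lower in both as well (−0.52 and −0.67). Mlycd, which removes malonyl-CoA, the inhibitor of Cpt1a, was lower in Th17-derived Th1 against Th17 cells (−0.49, adjusted p = 0.0144, limma), and Slc22a5, the carnitine importer of the cell surface, in Th1 against Th17 cells (−0.66, adjusted p = 0.00258), as was Acot2 (−0.52). Acot7, which splits long acyl-CoA, was higher against Th17 cells in Th17-derived Th1 (0.65) and Th1 cells (0.57), and Acot9 in Th1 cells (0.64). Pcca, of propionyl-CoA carboxylase, was higher in Th17-derived Th1 than in Th1 cells (0.68, adjusted p = 0.00801, limma).

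Of 6 tested genes of ketone and acetyl-CoA use, 0 were higher and 2 lower in Th17-derived Th1 against Th17 cells, 0 were called against Th1 cells (limma; 1 had an unadjusted p below 0.05), and 1 was higher and 3 lower in Th1 against Th17 cells. In these 3 comparisons 15.9%, 10.5% and 42.9% of all genes were called, and no background is given for the unadjusted threshold. The median differences were −0.19, 0.09 and −0.15, against −0.12, 0.05 and −0.17 over all genes. Acss1, which makes acetyl-CoA from acetate in mitochondria, and Oxct1, which uses ketone bodies, were lower in Th17-derived Th1 (−1.17 and −0.33) and in Th1 cells (−1.60 and −0.24), each against Th17 cells. Bdh1, the dehydrogenase of hydroxybutyrate, was lower (−0.40) and Hmgcs1, of sterol synthesis, higher (0.93) in Th1 against Th17 cells. Of 25 tested regulators 0 were higher and 4 lower in Th17-derived Th1 against Th17 cells, 1 higher and 0 lower against Th1 cells, and 3 higher and 12 lower in Th1 against Th17 cells. These made up 16%, 4% and 60% of the regulators, against 15.9%, 10.5% and 42.9% of all genes, with median differences of −0.23, 0.14 and −0.38. Ppargc1b, a coactivator of oxidative genes, was low, at 1.05 ± 0.113 FPKM in Th17-derived Th1 and 0.494 ± 0.168 in Th1 cells, against 2.23 ± 0.348 in Th17 cells, and lower in both (−0.65 and −1.11, adjusted p = 0.0133 and 0.000464, limma). Pdk1, the kinase that turns pyruvate dehydrogenase off, averaged 23.3 ± 2.01 FPKM in Th17-derived Th1, 7.16 ± 0.810 in Th1 and 21.9 ± 3.49 in Th17 cells, and was higher in Th17-derived Th1 than in Th1 cells (1.58, adjusted p = 0.000421, limma), and Th1 cells had less of it than Th17 cells (−1.48). Sirt5, a deacylase of mitochondria (−0.69), and Prkab2 and Prkab1, subunits of the energy sensor AMPK (−0.59 and −0.36), were lower in Th17-derived Th1 against Th17 cells. In Th1 against Th17 cells Rxra (−1.07), the partner of the PPAR receptors, and Pprc1 (−0.99) were among the lower, and Lpin1 (1.08), Foxo3 (0.48) and Ucp2 (0.30) were the higher.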

How the data were processed

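The authors deposited FPKM values for 22017 gene symbols in 9 libraries of mouse T helper cells, with 3 libraries in each of 3 groups taken from the sample titles. The submitters' processing notes name HISAT2, DESeq2 and the mm10 build, with no version. The role of each, the gene models, the strand setting and the handling of shared reads were not given in the sources used here. Low values (under 0.1 FPKM) gave no sign of whole reads, since the most frequent ratio of a gene's values in 2 libraries (within 0.01 log2 units) held for 1.06% to 2.38% of them, so depth is unknown and no counting interval is given. FPKM also depends on the composition of a library, so scaling was varied.

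The 10538 genes that reached 1 FPKM in 3 or more libraries were tested as log2(FPKM + 1), with a pseudocount of 1. A limma fit (version 3.58.1, under R 4.3.3) of all 9 libraries used a trend of variance on mean and left 6 residual degrees of freedom. Two-sided p-values of each of 3 comparisons were adjusted over all genes (Benjamini-Hochberg), and those below 0.05 were called. The members and lists were chosen with earlier results of these data known. Named members are all those called in at least 1 comparison and the carnitine shuttle, and from each related list up to 4 genes per direction and comparison with the largest difference. Alternatives were a replicate block, other pseudocounts, filters and scalings, fits of 2 groups only, array weights, replicates 1 and 2 alone, and the omission of each library. Positions come from GENCODE (GRCm38) and sequences from RefSeq (GRCm38.p6). Protein sequences were not analysed here. A few genes of the related lists are counted but not reported singly here. Python 3.11.15 was used for tables (pandas 2.3.3) and plots (matplotlib 3.10.9).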

Additional observations from a re-analysis of the deposited data

How the results depend on the processing

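The 3 comparisons of 31 tested members were recomputed under 20 alternatives, which gave 1848 values. No call changed direction. In 111 values a call was lost, 71 of them by the omission of 1 library, and in 49 a call was added, 28 of them by array weights. In Th17-derived Th1 against Th17 cells 1678 genes were called, against 1354 with median-ratio scaling, 4603 with array weights and 1036 with replicates 1 and 2 alone. The 7 lower members were 4, 16 and 3 in the same order, and the 1000 lower genes 501, 3024 and 522. In Th17-derived Th1 against Th1 cells 1104 genes were called, against 703 in a fit of the 2 groups only, 5430 with array weights and 596 with replicates 1 and 2 alone. The 1 higher member there was 9 with array weights, and the 4 lower members were 2 in a fit of the 2 groups only, 10 with array weights and 2 with replicates 1 and 2 alone. In Th1 against Th17 cells 4526 genes were called, against 7116 with array weights. The 12 lower members were 7 with median-ratio scaling and 6 with replicates 1 and 2 alone, and the 3048 lower genes 1759 and 1916. The cause of these changes was not tested.

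Leaving out 1 library in turn gave 681 to 2342 called genes, 2 to 4 higher and 1 to 10 lower members in Th17-derived Th1 against Th17 cells, 315 to 1861 genes, 1 to 2 higher and 0 to 5 lower members against Th1 cells, and 3013 to 5400 genes, 5 to 7 higher and 7 to 13 lower members in Th1 against Th17 cells. The counts of 1 and 0 lower members were without Th17 replicate 2 and without Th17-derived Th1 replicate 2. The share of calls that were higher was 55.3% with quantile normalization in the first comparison and 45.6% in the third.

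Deviations of same-numbered libraries from their group means correlated at −0.18 to 0.66, with 0.54 and 0.66 between replicates 2 and between replicates 3 of Th17-derived Th1 and Th1 cells and −0.18 to 0.33 in the other pairs. Cd8a was highest in replicate 3 of every group. The labels give no shared source for a number and not every pair passed 0.1, so pairing was not taken as shown, and not every library correlated best with its own number. With the replicate number as a block, 3 members were higher and 7 lower in Th17-derived Th1 against Th17 cells, 1 and 4 against Th1 cells, and 5 and 12 in Th1 against Th17 cells, where Cpt2 was no longer called. Over all genes 745 were higher and 936 lower, 634 and 621, and 1482 and 2970, in the same order. Groups of 3 are too small for the search for single outlying libraries, and none was made.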

Other observations

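Of 16 tested genes of fatty acid uptake, storage and release, 2 were higher and 0 lower in Th17-derived Th1 against Th17 cells, 2 higher and 2 lower against Th1 cells, and 4 higher and 0 lower in Th1 against Th17 cells. The called genes were 12.5%, 25.0% and 25.0% of the list, against 15.9%, 10.5% and 42.9% of all genes tested, and the median differences 0.19, 0.02 and 0.22, against −0.12, 0.05 and −0.17. Dgat1, which makes triglyceride from acyl-CoA, averaged 76.9 ± 36.5 FPKM in Th17-derived Th1 and 84.3 ± 27.7 in Th1 cells, against 13.8 ± 0.443 in Th17 cells (SD, n = 3 each), with log2 differences of 2.30 and 2.47 (adjusted p = 0.00213 and 0.000606, limma). Mgll, which releases fatty acid from monoglyceride, was higher in both as well (1.27 and 1.13). Plin2, a coat protein of lipid droplets, averaged 6.00 ± 2.12 FPKM in Th17-derived Th1, 20.4 ± 1.59 in Th1 and 4.001 ± 0.281 in Th17 cells, and was lower in Th17-derived Th1 than in Th1 cells (−1.65, adjusted p = 0.00160, limma) and higher in Th1 than in Th17 cells (2.10, adjusted p = 9.74e-05). In Th17-derived Th1 against Th1 cells Plin3 (0.67) and Lipa (0.44), the lysosomal lipase, were higher and Slc27a1 (−0.76), a fatty acid importer, was lower, and Dbi (0.44), which binds acyl-CoA, was higher in Th1 against Th17 cells.

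Of 18 tested genes of fatty acid synthesis, 2 were higher and 1 lower in Th17-derived Th1 against Th17 cells, 1 higher and 1 lower against Th1 cells, and 2 higher and 4 lower in Th1 against Th17 cells. These were 16.7%, 11.1% and 33.3% of the list, the first 2 shares near those of all genes and the last below, with median differences of 0.15, −0.01 and 0.17. Me1, the cytosolic malic enzyme that supplies NADPH, averaged 1.27 ± 0.206 FPKM in Th17-derived Th1, 8.84 ± 4.15 in Th1 and 0.187 ± 0.0643 in Th17 cells. It was higher in Th17-derived Th1 than in Th17 cells (0.94), lower than in Th1 cells (−2.04), and higher in Th1 than in Th17 cells (2.98, adjusted p = 6.57e-05, limma). Acss2, which makes acetyl-CoA from acetate in the cytosol and nucleus, was lower against Th17 cells in Th17-derived Th1 (−1.30) and Th1 cells (−1.52). Of the elongases, Elovl5 was called higher in Th17-derived Th1 against Th17 cells (0.69), Elovl6 in Th17-derived Th1 against Th1 cells (0.58) and Elovl1 in Th1 against Th17 cells (0.37), where Mecr (−0.69), Fads1 (−0.51) and Mcat (−0.39) were lower.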
